A study of Mus musculus with 12 samples.

Results

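Cxcl1, Cxcl2 and Cxcl5 encode chemokines that attract neutrophils, and their 3 rows among the 35869 gene symbols of a count table of mouse colonoids are described here. They were taken by symbol, and all 3 were among the 13987 genes that passed the filter on low counts. Colonoids are epithelial structures grown from isolated colonic crypts, here from C57BL/6 mice, in Matrigel with EGF and conditioned medium from L-WRN cells, a line that secretes Wnt3a, R-spondin 3 and noggin. Polyadenylated RNA was sequenced from 4 groups of 3 libraries. The groups were given IL-1b at 100 ng/mL together with IL-22 at 1 ng/mL, both recombinant mouse proteins, IL-22 alone at 1 ng/mL, IL-1b alone at 100 ng/mL, or no cytokine (unstimulated), and exposure lasted 12 hours. All groups thus shared the conditioned medium, EGF and strain, and each cytokine was given at 1 dose and 1 time. Nothing in the labels tells whether the 3 libraries of a group are separate animals or cultures. The p-values therefore reflect only how far these libraries differ, which may be technical.

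CXCL1, CXCL2 and CXCL5 are small secreted proteins of the ELR+ CXC class, named for a Glu-Leu-Arg motif before the first cysteines. They bind the receptor CXCR2 on neutrophils and draw these cells out of the blood and across inflamed epithelium. Transcription of such genes is classically induced through NF-kB, downstream of the IL-1 receptor among others. Their mRNAs are short-lived, and RNA-binding proteins set how long they last. IL-22 acts on epithelial cells through a receptor of IL22RA1 and IL10RB and through STAT3, and IL-1b acts through IL1R1, MYD88 and the IRAK kinases.

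The 3 genes lie in 1 cluster on chromosome 5 of genome build mm10, all on the plus strand. Cxcl5 (ENSMUSG00000029371.7) spans bases 90759360 to 90761624, Cxcl1 (ENSMUSG00000029380.11) spans 90891241 to 90893115, and Cxcl2 (ENSMUSG00000058427.10) starts 12.6 kb further on and spans 90903871 to 90905938. None shares exon bases with another gene model. Of the 3 genes, 2 had a promoter window in RefSeq (GRCm38.p6), Cxcl1 and Cxcl2, and their sequences are shown because both hold the NF-kB letters GGAATTTCC, in capitals, on the gene's own strand. The neighbouring gene Cxcl3, whose product also binds CXCR2, holds the same letters and is shown beside them. Each line gives 120 bases of the plus strand, 5′ to 3′.
Cxcl1, chr5:90891121-90891240: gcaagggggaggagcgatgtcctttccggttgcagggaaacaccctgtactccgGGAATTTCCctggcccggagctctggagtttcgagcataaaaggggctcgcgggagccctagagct
Cxcl2, chr5:90903751-90903870: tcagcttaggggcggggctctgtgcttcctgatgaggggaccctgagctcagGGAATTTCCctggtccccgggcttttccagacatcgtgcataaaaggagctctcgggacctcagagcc
Cxcl3, chr5:90785981-90786100: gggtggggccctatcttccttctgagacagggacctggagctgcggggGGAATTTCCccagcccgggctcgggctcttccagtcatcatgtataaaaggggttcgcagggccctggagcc
The letters began 70 bases before the RefSeq start of Cxcl1, 96 before that of Cxcl2 and 72 before that of Cxcl3. The letters were chosen with these windows in view. Searched on both strands, GGAATTTCC stood in 104 of 32851 promoter windows of 300 bases in the mouse table, or 0.317%. The STAT letters TTCNNNGAA stood in 8.3% of these windows, but not in those of Cxcl1 or Cxcl2. A match describes letters and is not a binding site, and a missing match says only that the letters are not in this window.

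Library totals lay between 4703902 and 5804033 counts, so that 3 counts, taken as the floor of a single library, stood for 0.499 to 0.665 CPM, the count scaled to a common library total. Over 9198 to 9206 genes with few counts per exon base, the libraries within each group differed beyond sampling noise. Chi-square over its degrees of freedom was 3.02 with both cytokines, 3.09 with IL-22, 2.06 with IL-1b and 2.77 unstimulated. Genes with more counts per exon base were left out of these values. All 13 colonic epithelial markers were detected, with 3687 to 4619 CPM in sum per library. Of 16 neutrophil markers, 8 had no count in any library, Mpo, Elane and Mmp9 among them, and the neutrophil receptor gene Csf3r had 1 count in all. Of that list's counts 54.7% came from Ly6g and 42.2% from Cd177, and its sum was 270 to 305 CPM with both cytokines, 198 to 258 with IL-22, 251 to 328 with IL-1b and 182 to 202 unstimulated. The list without Ly6g and Cd177 summed to 14.5 to 26.6 CPM with both, 4.96 to 7.53 with IL-22, 2.76 to 5.83 with IL-1b and 0.948 to 3.09 unstimulated. Of its 5 tested genes, 4 were called higher with both cytokines than unstimulated, beside 13.7% of all tested genes called higher. These were Ly6g, Cd177 and the calprotectin subunit genes S100a8 and S100a9, both of which epithelium can also make. S100a8 had 14, 24 and 31 counts with both, 3, 16 and 15 with IL-22, 0, 1 and 1 with IL-1b and 0 in each unstimulated library. S100a9 had 44, 38 and 78 counts with both, 2, 2 and 0 with IL-22, 1, 9 and 3 with IL-1b and 1, 0 and 0 unstimulated. The libraries with both cytokines thus stood highest for S100a9, as they did for Cxcl2 and Cxcl5. S100a9 passed the filter on low counts through these libraries, and S100a8 in part, so their calls are not independent of that filter. Of 15 markers of other leukocytes, Tyrobp and Adgre1 were at 0 throughout, and Cd14 held 83.1% of the counts. Of the 4 tested genes of this list, 2 were called higher with both cytokines than unstimulated, Cd68 (log2 fold change 1.59) and Cd14 (0.66). These 2 were also called higher with IL-22 alone (1.76 and 0.65), and none of the 4 was called with IL-1b alone. Over all tested genes 13.7% were called higher with both cytokines and 11.9% with IL-22. That list summed to 109 to 130 CPM with both cytokines, 109 to 134 with IL-22, 95 to 153 with IL-1b and 68.0 to 79.3 unstimulated. Its member Ptprc, the pan-leukocyte gene for CD45, had 2, 9 and 6 counts with both, 4, 9 and 2 with IL-22, 104, 20 and 12 with IL-1b and 0, 2 and 2 unstimulated, so IL-1b replicate 1 stood apart. Of 14 fibroblast, muscle and endothelial markers, Lum was at 0 throughout and Pdgfrb held 78% of the counts. That list summed to 15 to 19.8 CPM with both cytokines, 21.9 to 30.9 with IL-22, 50.0 to 56.2 with IL-1b and 40 to 56.1 unstimulated. Its 3 tested genes were all called lower with both cytokines than unstimulated, beside 13.3% of all tested genes called lower. Their log2 fold changes were -1.58 ± 0.19 for Pdgfrb, -1.48 ± 0.39 for Pecam1 and -1.07 ± 0.34 for Vwf. The Vwf call was lost in 8 alternatives and that of Pecam1 in 3. The part of these marker levels in the chemokine values was not tested. Values of Cxcl1, Cxcl2 and Cxcl5 without IL-1b replicate 1 are given where they differ. In RNA from whole cultures, more cells of a type and more RNA per cell cannot be told apart.

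Cxcl5 was the most abundant of the 3 genes, and IL-22 was the cytokine under which it was high. It had 75.7, 64.9 and 117 CPM in the IL-1b+IL-22 libraries, 45.0, 31.7 and 44.7 CPM with IL-22, 22.6, 6.02 and 15.1 CPM with IL-1b, and 8.73, 4.0 and 8.72 CPM in unstimulated libraries. The 6 libraries with IL-22 all lay above the 6 without it, and the 3 with both cytokines lay above all others. Libraries with IL-1b alone overlapped the unstimulated ones. CXCL5 is known as a chemokine made largely by epithelial cells. The highest Cxcl5 count stood at 0.294 per exon base, in the range where Rps29, a gene with 177 to 193 counts in every library, reached 0.278 and varied less than sampling noise. Whether Cxcl5 counts level off in the same way was not tested.

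Cxcl1 had 18.6, 12.5 and 19.7 CPM in the IL-1b+IL-22 libraries, 13.6, 8.86 and 7.17 CPM with IL-22, 8.82, 6.58 and 10.3 CPM with IL-1b, and 2.49, 2.91 and 4.17 CPM unstimulated. Every library that received a cytokine lay above all 3 unstimulated ones, and the IL-22 and IL-1b groups overlapped each other. CXCL1, also called KC in mice, is made by many cell types and was identified early as an immediate response gene. The IL-22 library with the highest Cxcl1 level exceeded the lowest library with both cytokines.

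Cxcl2, the gene for the macrophage inflammatory protein MIP-2, was the least abundant. Its counts were 35, 23 and 40 with both cytokines, 8, 8 and 6 with IL-22, 18, 4 and 5 with IL-1b, and 4, 0 and 4 unstimulated. In CPM these were 7.06, 4.51 and 8.58 with both cytokines, 1.65, 1.77 and 1.13 with IL-22, 3.31, 0.752 and 0.832 with IL-1b, and 0.713, 0 and 0.759 unstimulated. The libraries with both cytokines lay above all others, while 1 IL-1b library, replicate 1, lay above the remaining 2 and above the IL-22 group. Of the stretches of 50 bases in Cxcl2 transcripts 5.84% also occur in Cxcl3, so a small part of its counts is uncertain, against 0% of the stretches in Cxcl1 and 0.693% in Cxcl5.

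**Figure D1:**
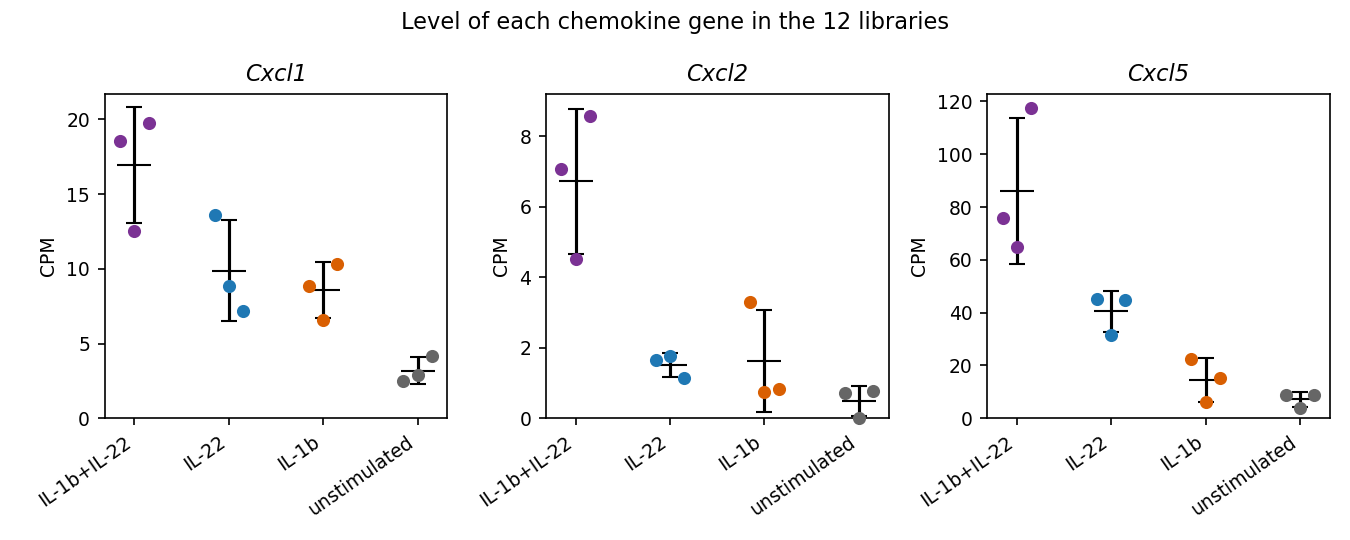
Level of Cxcl1, Cxcl2 and Cxcl5 in CPM (counts scaled by TMM to a common library total, linear axis from 0, 1 panel per gene) in the 12 libraries. Points are libraries and bars the mean ± SD of 3. All 3 genes had their highest mean with both cytokines (16.9, 6.72 and 86.0 CPM for Cxcl1, Cxcl2 and Cxcl5).

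Set per length, which allows levels to be compared between genes, the mean level of Cxcl5 was 46.1 ± 14.9 CPM per kilobase of exon (SD, n = 3) with both cytokines, 21.7 ± 4.09 with IL-22, 7.83 ± 4.46 with IL-1b and 3.84 ± 1.46 unstimulated. Cxcl1 had 9.04 ± 2.06 CPM per kilobase with both cytokines, 5.27 ± 1.79 with IL-22, 4.57 ± 1.00 with IL-1b and 1.70 ± 0.466 unstimulated. Cxcl2 had 3.25 ± 0.995 with both cytokines, 0.734 ± 0.165 with IL-22, 0.789 ± 0.703 with IL-1b and 0.237 ± 0.206 unstimulated. The order Cxcl5, Cxcl1, Cxcl2 thus held in all 4 groups. The exon bases of Cxcl1 (1875) and Cxcl2 (2068) include introns that some annotated transcripts keep. With the longest protein-coding transcript (953 bases) the level of Cxcl1 was 8.99 CPM per kilobase with IL-1b against 9.26 for Cxcl5 (1575 bases), a difference well within their spread.

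Together the cytokines raised all 3 genes. Against unstimulated libraries the log2 fold change was 2.40 ± 0.29 (SE) for Cxcl1, a 5.29-fold difference (adjusted p = 4.69e-05, Benjamini-Hochberg, from the edgeR quasi-likelihood test). Cxcl2 was 3.71 ± 0.60 higher on the log2 scale (adjusted p = 4.71e-04), and the ratio of its summed counts, 98 against 8, was 13.6 with an exact 95% counting interval of 6.65 to 32.5. Cxcl2 passed the filter on low counts through the libraries with both cytokines, where it is high, so its call is not independent of that filter. With no filter beyond 1 count it was also called (adjusted p = 6.81e-09). That fit gave more calls in some comparisons, as for IL-1b against unstimulated (212 genes, against 10 with the filter). Cxcl5 was 3.58 ± 0.36 higher, or 12.0-fold (adjusted p = 1.00e-05). Of all tested genes 27.0% were called in this comparison, 13.7% as higher and 13.3% as lower. The groups did not overlap for any of the 3 genes. Here and below, how often groups do not overlap over all tested genes was not counted, so this only describes the libraries. The 3 genes had a median log2 fold change of 3.58, beside 0.00 over all tested genes. All 3 calls were kept without any 1 library and under the other alternatives tried. IL-1b replicate 1 and IL-1b+IL-22 replicate 3 had the highest sums of the other leukocyte markers in their groups. Of the neutrophil list, IL-1b replicate 1 had the lowest sum of its group (251 CPM). Without these 2 libraries Cxcl2 was 3.50 and Cxcl5 3.29 higher.

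IL-22 alone raised Cxcl5 and Cxcl1. Cxcl5 had a mean of 40.5 ± 7.61 CPM with IL-22 and 7.15 ± 2.73 CPM unstimulated (SD, n = 3), a log2 fold change of 2.50 ± 0.39 or 5.67-fold (adjusted p = 4.29e-04). Cxcl1 had 9.88 ± 3.35 CPM with IL-22 and 3.19 ± 0.874 CPM unstimulated, 3.08-fold higher (1.63 ± 0.31, adjusted p = 0.00199). The count of called members was 2 of 3 beside 22.5% of all tested genes. Cxcl2 did not pass, with a log2 fold change of 1.58 ± 0.78 (adjusted p = 0.167), although its 3 IL-22 libraries lay above the unstimulated ones. Its summed counts were 22 with IL-22 and 8 unstimulated, a ratio of 3.07 with a counting interval of 1.32 to 7.98.

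IL-1b alone gave no call among the 3 genes under the edgeR test with that filter, in a comparison where 10 of 13987 genes, or 0.0715%, were called. All 3 had an unadjusted p under 0.05, among 1338 of the 13987 tested genes that did. Cxcl1 had 8.57 ± 1.88 CPM with IL-1b and 3.19 ± 0.874 CPM unstimulated (SD, n = 3), with no overlap and a log2 fold change of 1.43 ± 0.31 (adjusted p = 0.159). DESeq2 called it (adjusted p = 0.0248), as did edgeR with no filter beyond 1 count (adjusted p = 5.67e-04, and 0.0221 for Cxcl5), and limma-voom called none of the 3 genes. Cxcl2 had a log2 fold change of 1.68 ± 0.75 (adjusted p = 0.504) and Cxcl5 of 1.03 ± 0.43 (adjusted p = 0.489). IL-1b replicate 1, the library with 104 Ptprc counts, had the most Cxcl2 and Cxcl5 of its group, and without it their log2 fold changes were 0.68 and 0.60. That of Cxcl1 was 1.42 without it. Calls were scarce for IL-1b in general, so the absence of a call does not show that these genes did not respond.

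Adding IL-1b where IL-22 was present gave higher values of all 3 genes, but with the filter used here none was called by edgeR, DESeq2 or limma-voom. With no filter beyond 1 count edgeR called all 3 (adjusted p = 0.0489 for Cxcl1, 6.35e-04 for Cxcl2 and 1.63e-05 for Cxcl5). DESeq2 gave no adjusted p for Cxcl2. All 3 had an unadjusted edgeR p under 0.05, among 1440 of the 13987 tested genes that did. After adjustment 11 of 13987 genes, or 0.0786%, were called, 0.0643% as higher and 0.0143% as lower. Cxcl2 had the largest difference of the 3, with 6.72 ± 2.06 CPM with both cytokines and 1.52 ± 0.340 CPM with IL-22 (SD, n = 3), a log2 fold change of 2.14 ± 0.50 (adjusted p = 0.124). Cxcl5 stood at 1.08 ± 0.29 (adjusted p = 0.195), and the groups overlapped for neither gene. Cxcl1 stood at 0.78 ± 0.25 (adjusted p = 0.296) with 1 IL-22 library inside the range of the other group. The log2 difference of Cxcl5 was 0.79 without IL-1b+IL-22 replicate 3, its highest library.

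Adding IL-22 where IL-1b was present raised all 3 genes, beside 26.3% of all tested genes called. Cxcl5 had 86.0 ± 27.7 CPM with both cytokines and 14.6 ± 8.31 CPM with IL-1b (SD, n = 3), a log2 fold change of 2.55 ± 0.32 or 5.85-fold (adjusted p = 7.69e-05). Cxcl2 was 2.03 ± 0.48 higher (adjusted p = 0.00677), and 3.03 higher without IL-1b replicate 1. Without that library Cxcl5 was 2.99 higher on the log2 scale. Cxcl2 passed the filter on low counts through the libraries with both cytokines, so this call too is not independent of that filter. The Cxcl2 call was kept in all 21 alternatives, that with no filter beyond 1 count among them. Cxcl1 was 0.97 ± 0.25 higher, or 1.96-fold (adjusted p = 0.0117). The Cxcl1 call was lost without IL-1b replicate 2 (0.81, adjusted p = 0.0535), without IL-1b+IL-22 replicate 3 (0.84, adjusted p = 0.0515), and without IL-1b replicate 1 and IL-1b+IL-22 replicate 3 together (0.86, adjusted p = 0.101). The groups did not overlap for any of the 3 genes, a description without a count over all tested genes.

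Of IL-22 and IL-1b set directly against each other, the test called a difference in Cxcl5. Cxcl5 was 2.77-fold higher with IL-22 (log2 fold change 1.47 ± 0.34, adjusted p = 0.00649), with no overlap, beside 26.3% of all tested genes called. Without IL-1b replicate 1 the log2 fold change of Cxcl5 was 1.91. Cxcl1 stood at 0.20 ± 0.27 (adjusted p = 0.636) and Cxcl2 at -0.10 ± 0.61 (adjusted p = 0.924), and the sign of both changed when single libraries were left out. These comparisons share libraries, so their fold changes are not independent of each other.

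**Figure D2:**
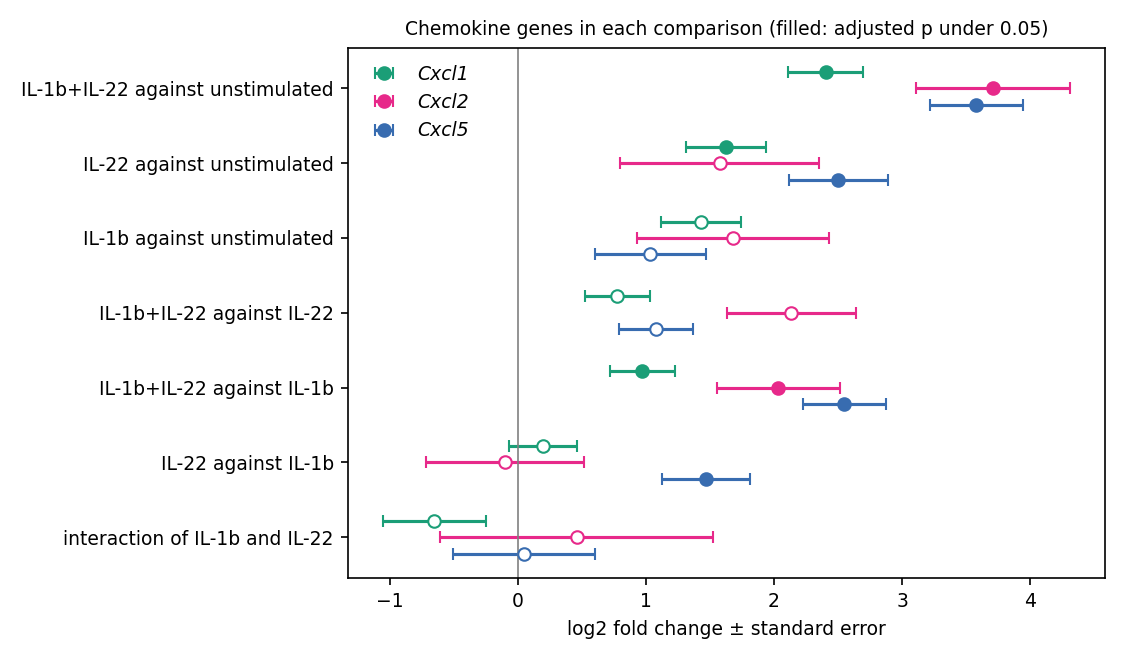
Log2 fold change of Cxcl1, Cxcl2 and Cxcl5 in each comparison with its standard error (horizontal axis), from the edgeR fit to all 12 libraries. Filled points had an adjusted p under 0.05, which all 3 genes had for IL-1b+IL-22 against unstimulated and against IL-1b, and none had for the interaction.

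Whether the effect of 1 cytokine differed with the other present was tested as an interaction on the log2 scale. No gene of 13987 was called by edgeR (705 had an unadjusted p under 0.05, and DESeq2 called 4), and none of the 3 members had an unadjusted p under 0.05 in edgeR, DESeq2 or limma-voom. The interaction was -0.65 ± 0.40 for Cxcl1 (adjusted p = 0.973), 0.46 ± 1.06 for Cxcl2 (0.997) and 0.05 ± 0.55 for Cxcl5 (0.999). For Cxcl2 and Cxcl5 the standard error was larger than the estimate itself. Without IL-1b replicate 1 the interaction was -0.64 for Cxcl1, 1.45 for Cxcl2 and 0.48 for Cxcl5. On the linear scale, the level of Cxcl1 with both cytokines was 16.9 CPM, beside 15.3 CPM for the sum of the single-cytokine levels less the unstimulated one, an excess of 1.68 ± 3.18 CPM (SE). Cxcl2 had 6.72 CPM beside 2.66 CPM, an excess of 4.06 ± 1.49 CPM. Cxcl5 had 86.0 CPM beside 47.9 CPM, an excess of 38.1 ± 17.3 CPM. The excess was larger than its SE for Cxcl2 and Cxcl5 but not for Cxcl1, and no test was made on this scale. Over the level that multiplying the ratios of the mean CPM of the single-cytokine groups to unstimulated gives, the mean CPM with both cytokines was 0.639 for Cxcl1, 1.33 for Cxcl2 and 1.04 for Cxcl5.

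The makeup of their summed RNA differed between groups. The sum was 110 ± 32.7 CPM with both cytokines, 51.9 ± 9.04 with IL-22, 24.8 ± 10.8 with IL-1b and 10.8 ± 3.50 unstimulated (SD, n = 3). Cxcl5 made up 78.1% ± 3.06 of the summed counts with both cytokines, 78% ± 5.53 with IL-22, 55.9% ± 10.1 with IL-1b and 65.0% ± 7.68 unstimulated. Cxcl1 made up 15.7% ± 2.42 with both cytokines, 19.0% ± 4.83 with IL-22, 38.0% ± 12.0 with IL-1b and 31.2% ± 10.6 unstimulated. Cxcl2 had the smallest share, 6.12% ± 0.762 with both cytokines, 3.02% ± 1.06 with IL-22, 6.11% ± 3.21 with IL-1b and 3.84% ± 3.33 unstimulated. Counts of Cxcl5 over those of Cxcl1 were 4.08 to 5.95 with both cytokines, 3.30 to 6.24 with IL-22, 0.914 to 2.56 with IL-1b and 1.38 to 3.50 unstimulated. In IL-1b replicate 2 Cxcl1 was thus slightly more counted than Cxcl5. The libraries with IL-22 had the higher ratios, with an overlap of 1 unstimulated library, and the difference in ratio was not tested.

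**Figure D3:**
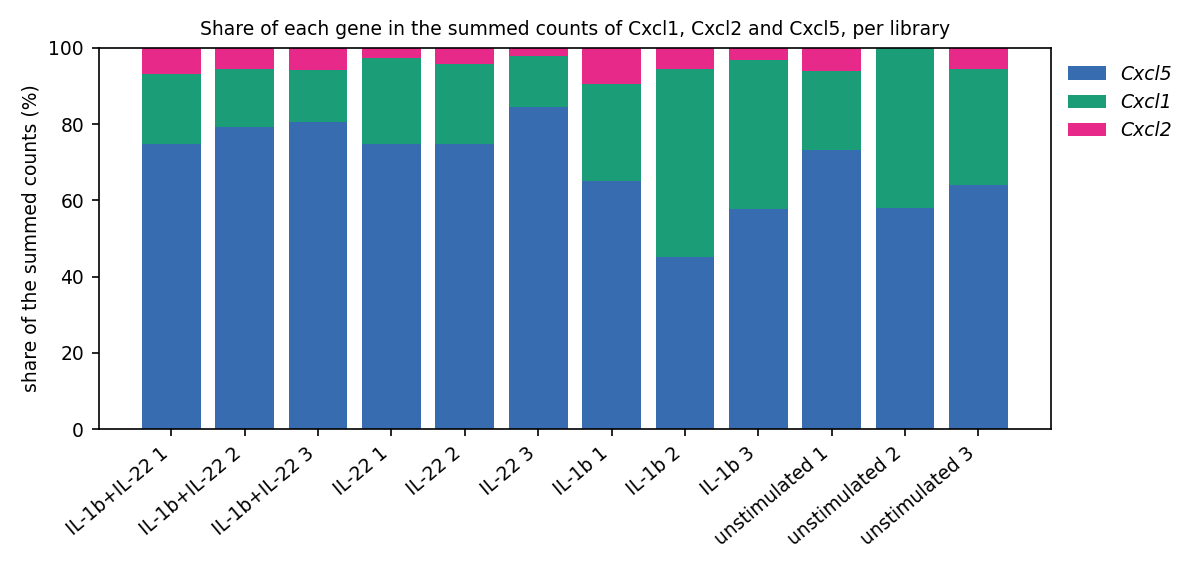
Share of Cxcl5, Cxcl1 and Cxcl2 in the summed counts of the 3 genes (vertical axis, %) in each of the 12 libraries. Cxcl5 held a mean of 78.1% with both cytokines and 78% with IL-22, and 55.9% with IL-1b and 65.0% unstimulated.

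Across the 12 libraries the log2 levels of the 3 genes ran together, with Pearson's r of 0.847 for Cxcl1 and Cxcl2, 0.866 for Cxcl1 and Cxcl5 and 0.890 for Cxcl2 and Cxcl5. These values reflect the 4 groups, and over deviations from the group means r was 0.366, 0.471 and 0.781. Likeness was ranked among 12199 tested genes with a mean of 1 CPM or more, a number that includes the 3 members. The members themselves and genes with clone-type names (Gm, Rik or accession-like) were passed over. Those most like Cxcl1 were Casp4 (r = 0.974), the inflammatory caspase, Tnf (0.965), the gene of tumour necrosis factor, Mydgf (0.962), Calu (0.960) and Crcp (0.955). Among those most like Cxcl5 were Nucb2 (0.963), Sppl2a (0.962), Mtm1 (0.958) and Tars (0.955), a threonyl-tRNA synthetase. Most like Cxcl2 were Rp2 (0.950), Prl2a1 (0.937), Acot9 (0.908), Pik3c2a (0.905) and Ppef1 (0.902). Chosen for likeness to genes that were highest with both cytokines, all of these named genes were called higher with both cytokines than unstimulated, Prl2a1 by 3.15 ± 0.31 and Nucb2 by 1.79 ± 0.16 on the log2 scale. An r above 0.9 was reached by 74 genes for Cxcl1, 6 for Cxcl2 and 159 for Cxcl5, so those shown are from the top of a long list for Cxcl1 and Cxcl5. Of the 5 for Cxcl1 and for Cxcl2, Spearman's rho shared 3 each. The calls of Rp2 and Ppef1 were lost without IL-1b+IL-22 replicate 3 or without unstimulated replicate 2. Likeness is over 12 libraries in 4 groups and says nothing of shared control.

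Other genes of ligands and receptors of this class had few counts. Cxcl3 had 7, 10 and 28 counts with both cytokines, 4, 4 and 2 with IL-22, 1, 2 and 2 with IL-1b and 1, 0 and 0 unstimulated, and was not tested. The ratio of its summed counts to the 1 unstimulated count was 50.1 with both cytokines (95% counting interval 8.54 to 2022), 11.2 with IL-22 (1.59 to 485) and 4.88 with IL-1b (0.547 to 231). Ppbp, which gives a platelet chemokine, had 30 counts in sum with both cytokines, 3 with IL-22, 16 with IL-1b and 6 unstimulated. IL-1b+IL-22 replicate 3 held 25 of the 30 Ppbp counts and 28 of the 45 Cxcl3 counts. Pf4, the gene of platelet factor 4, a CXC chemokine without the ELR motif, was tested. It had 2.96 ± 0.895 CPM with both cytokines and 1.66 ± 0.373 CPM unstimulated (SD, n = 3), a log2 fold change of 0.84 ± 0.41 (adjusted p = 0.138). Cxcl15, known in mice from the lung, had 1 count in each group. The receptor gene Cxcr2 had 7 counts in sum with both cytokines, 11 with IL-22, 2 with IL-1b and 0 unstimulated, too few for a fold change. Cxcr1 and Ackr1, an alternative receptor and a decoy receptor of these ligands, had no count.

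Other tested genes within 250 kb of a member also changed. Of 7 such genes, 5 were higher and 1 lower with both cytokines than unstimulated, 4 higher and 1 lower with IL-22, and none called with IL-1b. Over all tested genes, 13.7% were higher and 13.3% lower with both cytokines, and 11.9% higher and 10.6% lower with IL-22, and the list counts that follow stand beside these same shares. The EGF receptor ligand genes downstream of Cxcl2 were among them. Ereg (epiregulin) rose by 1.44 ± 0.25 with both cytokines and 1.04 ± 0.25 with IL-22, and Epgn (epigen) rose by 1.36 ± 0.39 with both and 1.37 ± 0.39 with IL-22. Areg (amphiregulin) rose by 0.43 ± 0.08 with both and 0.47 ± 0.08 with IL-22, and Rassf6 rose by 0.47 ± 0.07 with both and 0.36 ± 0.07 with IL-22. Afm, which encodes afamin, fell with both cytokines (-1.01 ± 0.14) and with IL-22 (-0.78 ± 0.13). The Epgn call with both cytokines was lost without IL-1b+IL-22 replicate 1 or unstimulated replicate 2, that with IL-22 without IL-22 replicate 2 or unstimulated replicate 2 or 3, and that of Mthfd2l (0.67 ± 0.22) without 4 libraries in turn. Ereg and Afm share exon bases with another gene model, and as the counting strand is not given their counts are uncertain.

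**Figure D4:**
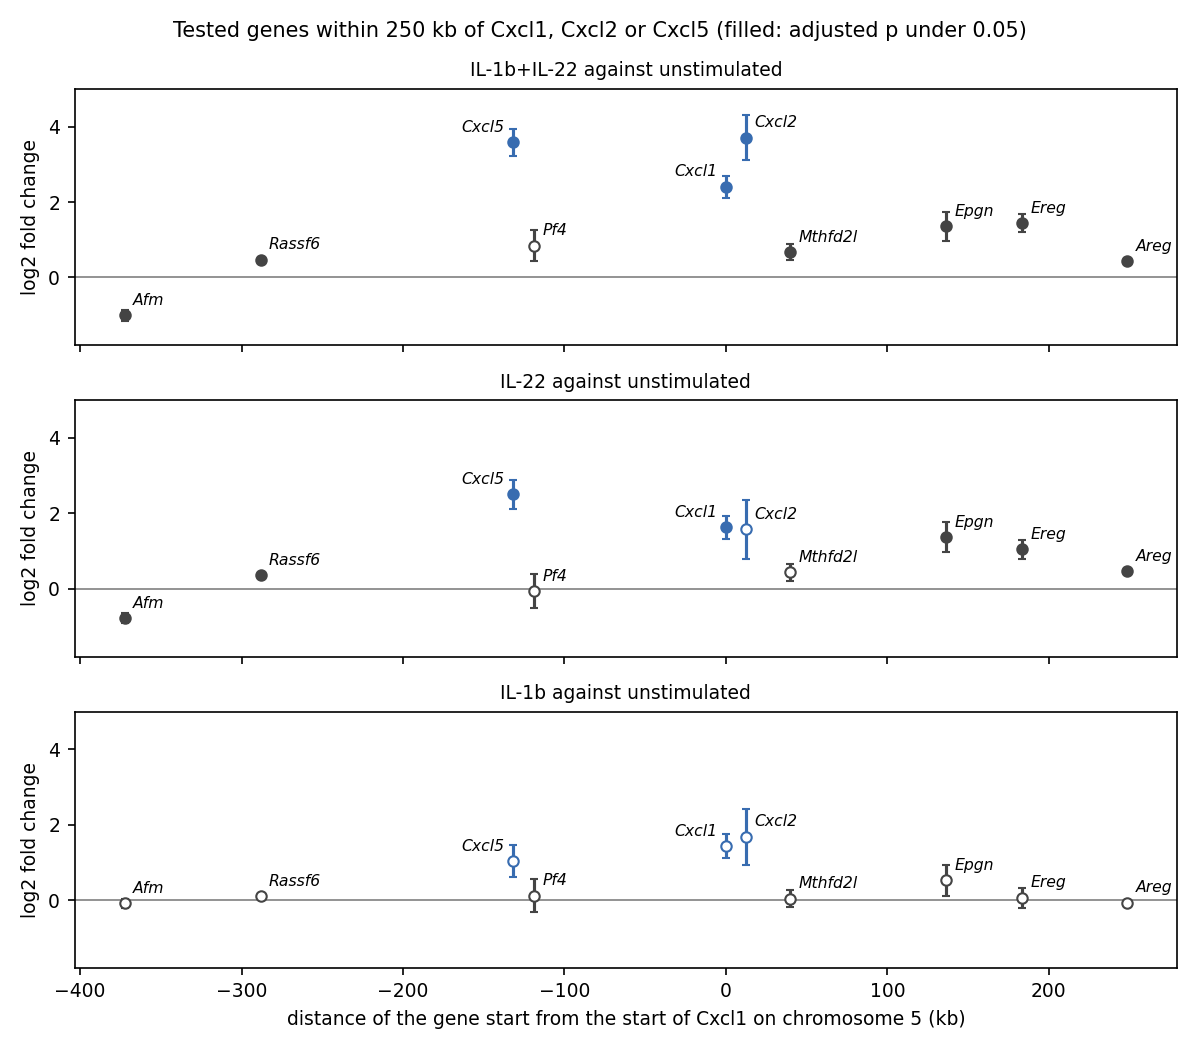
Log2 fold change ± SE (vertical axis) of the 10 tested genes within 250 kb of a member by the distance of their start from that of Cxcl1 in kb (horizontal axis), in 3 comparisons with unstimulated libraries. Blue points are Cxcl1, Cxcl2 and Cxcl5, and filled points had an adjusted p under 0.05. With both cytokines 8 of 10 genes were higher and Afm was lower.

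Il22ra1 and Il1r1, receptor genes for IL-22 and IL-1b, both passed the filter on low counts. Il22ra1 had 138 ± 10.1 CPM with both cytokines, 139 ± 11.4 with IL-22, 147 ± 7.34 with IL-1b and 143 ± 5.71 unstimulated (SD, n = 3), and was not called in any of the 7 comparisons. Il1r1, the signalling IL-1 receptor, fell with both cytokines against unstimulated (-1.13 ± 0.33, adjusted p = 0.0208), a call not made when IL-1b+IL-22 replicate 2 or unstimulated replicate 1 or 2 was left out. Of 16 tested genes of the IL-1, IL-22 and IL-17 receptor pathways (median log2 fold change -0.02 with both cytokines), 4 rose and 3 fell with both cytokines, Traf6 by 0.44 ± 0.07 and Irak4 by 0.38 ± 0.07. Il17re, an IL-17C receptor subunit, fell (-0.75 ± 0.15), as did Il17ra (-0.39 ± 0.14), whose call was lost in 12 alternatives. With IL-22 alone 4 were higher and 3 lower, in all 7 called, but 3 without unstimulated replicate 2 and 4 without IL-22 replicate 2. With IL-1b alone none was called.

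NF-kB genes showed differences with both cytokines and with IL-22. Of 16 tested subunit and feedback genes (median log2 fold change 0.30 with both cytokines, 0.00 for all tested genes), 10 rose and 2 fell with both cytokines, 8 rose and 2 fell with IL-22, and none was called with IL-1b (1 without unstimulated replicate 1 or 3, and 1 by DESeq2). Nfkbiz, a cofactor known to boost a subset of NF-kB targets, had 122 ± 4.85 CPM with both, 109 ± 4.03 with IL-22, 81.8 ± 1.02 with IL-1b and 67.4 ± 9.64 unstimulated. It rose by 0.85 ± 0.08 with both cytokines and 0.69 ± 0.08 with IL-22. Rel rose by 1.00 ± 0.17, Bcl3 by 0.75 ± 0.07 and Tnip3 by 0.75 ± 0.11 with both, while Tnip1 fell by 0.40 on the log2 scale and Relb by 0.26. Bcl3 shares exon bases with another model, and the Relb call was lost in 5 alternatives. Of the 103 genes with a promoter window that holds GGAATTTCC, 41 were tested. Without Cxcl1 and Cxcl2, whose windows were in view when the letters were chosen, 39 remained, of which with both cytokines 9 rose, Icam1, Nfkbia and Tnfaip3 among them, and 5 fell, Cxcl10 among them, beside 13.7% and 13.3% of all tested genes. Their median log2 fold change was 0.01. With IL-1b alone none of them was called.

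On the STAT3 side, 5 of 10 tested genes (median log2 fold change 0.33) rose with both cytokines, 5 rose with IL-22 and none was called with IL-1b. Socs3, the feedback inhibitor of STAT3 signalling, had 214 ± 8.0 CPM with both, 209 ± 10.7 with IL-22, 11 ± 0.547 with IL-1b and 13.4 ± 5.84 unstimulated. It rose by 3.98 ± 0.16 with both cytokines, and between the 2 groups with IL-22 it was not called (0.03 ± 0.12). Pim3 rose by 1.24 ± 0.06, Socs1 by 0.88 ± 0.25 and Cebpd, a C/EBP factor, by 0.75 ± 0.09. The Socs1 call was not made when IL-1b+IL-22 replicate 2 or unstimulated replicate 2 or 3 was left out, and Cebpd shares exon bases with another gene model.

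Among 13 tested genes that control the decay of chemokine mRNAs (median log2 fold change -0.04 with both cytokines), 3 rose and 2 fell with both cytokines, 2 rose and 1 fell with IL-22, and none was called with IL-1b (1 without unstimulated replicate 1, and 1 by DESeq2). The 3 of 13 called with IL-22 are close to the 22.5% of all tested genes, and the 5 of 13 with both cytokines stand beside 27.0%. Arid5a, known to stabilise inflammatory mRNAs, rose by 1.51 ± 0.22 with both cytokines and 1.14 ± 0.22 with IL-22. Zc3h12a, the endoribonuclease regnase-1, had 105 ± 7.08 CPM with both, 75.7 ± 5.93 with IL-22, 93.6 ± 8.82 with IL-1b and 63.0 ± 9.0 unstimulated, and rose with both (0.74 ± 0.10). It was lower with IL-22 than with IL-1b (-0.31 ± 0.10, adjusted p = 0.0390), a call lost without 5 of the libraries compared in turn. Zfp36, which encodes the decay factor tristetraprolin, rose by 0.45 ± 0.08 with IL-22 and by 0.24 ± 0.08 with both cytokines, where its call was lost in 9 alternatives. The related genes Zfp36l1 and Zfp36l2 fell with both (-0.41 ± 0.08 and -0.27 ± 0.07). All 3 of these Zfp36 family genes share exon bases with another gene model, so their counts are uncertain.

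Chemokine genes that act on other cells took other directions. Of a list of 5 tested CXC genes outside the ELR+ class, without Pf4 (median log2 fold change -1.60 with both cytokines), 1 rose and 3 fell with both cytokines and 2 fell with IL-22. Of these 4 calls 2 were made without IL-1b+IL-22 replicate 3, and the IL-22 count was 1 without unstimulated replicate 3, IL-22 replicate 1 or IL-22 replicate 3. Cxcl10, which draws T cells through CXCR3, had 3.40 ± 0.153 CPM with both, 4.77 ± 1.63 with IL-22, 16 ± 1.49 with IL-1b and 12.7 ± 6.00 unstimulated, and fell by 1.89 on the log2 scale with both. Cxcl11 fell by 2.61, but the annotation used here lists it as a polymorphic pseudogene, so a working product cannot be assumed. Cxcl9 fell by 1.60, a call lost in 7 alternatives. Cxcl16 rose by 0.53 ± 0.14, a call lost without unstimulated replicate 2 or IL-1b+IL-22 replicate 3. Cxcl10, Cxcl11 and Cxcl16 share exon bases with other gene models, so their counts are uncertain. Ccl20, the ligand of CCR6 on lymphocytes and dendritic cells, had 22.4 ± 5.66 CPM with both, 4.21 ± 1.75 with IL-22, 48.5 ± 3.67 with IL-1b and 14.8 ± 1.83 unstimulated. It rose with IL-1b (1.71 ± 0.19, adjusted p = 0.00143) and fell with IL-22 (-1.79 ± 0.26, adjusted p = 2.90e-04), and was lower with IL-22 than with IL-1b (-3.49 ± 0.23, adjusted p = 4.16e-07), where Cxcl5 was higher. With both cytokines its difference of 0.59 ± 0.20 passed at an adjusted p of 0.0430 and was lost in 13 alternatives. Ccl28, another CC chemokine, fell with both (-0.35 ± 0.08), and the 7 tested CC, C and CX3C genes had a median log2 fold change of -0.03 with both.

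Of 6 tested colony-stimulating factors and inflammatory cytokines (median log2 fold change 0.84 with both cytokines), 4 rose with both cytokines, 3 with IL-22 and 1 with IL-1b. Tnf had 33.9 ± 4.11 CPM with both, 26.7 ± 3.09 with IL-22, 24.5 ± 0.260 with IL-1b and 13.0 ± 2.55 unstimulated, and rose by 1.38 ± 0.14 with both, 1.03 ± 0.15 with IL-22 and 0.91 ± 0.15 with IL-1b. The IL-1b call of Tnf was lost in 9 alternatives. Il33, an alarmin of the IL-1 family, had 46, 41 and 234 counts with both cytokines against 10, 23 and 38 unstimulated, and its rise (2.35 ± 0.64) was lost without unstimulated replicate 1 or IL-1b+IL-22 replicate 3, without which it stood at 0.99. Lif rose by 0.58 ± 0.11 and Il18 by 0.40 ± 0.09. Csf3, the gene of the growth factor G-CSF that mobilises neutrophils, had 5 summed counts with both cytokines, 0 with IL-22, 6 with IL-1b and 13 unstimulated, and was not tested.

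Some genes that retain chemokines at the epithelium or bind neutrophils were higher. Of 14 tested (median log2 fold change 0.18 with both cytokines), 4 rose and 2 fell with both cytokines, 7 rose with IL-22 and none was called with IL-1b. Without IL-22 replicate 2 the IL-22 count was 4. The lower calls, Sdc4 (-0.20 ± 0.06) and Ext2 (-0.25 ± 0.08), were lost in 5 and in 9 alternatives, that of Ext2 with DESeq2 and with the replicate block among them. Sdc1, whose shed product carries chemokines to the lumen, was not called and had 307 ± 9.92 CPM with both, 321 ± 30.8 with IL-22, 296 ± 8.48 with IL-1b and 303 ± 11.3 unstimulated. Mmp7, the protease known to shed it, rose with both cytokines (3.90 ± 0.48) to 10.4 ± 3.66 CPM, against 1.78 ± 0.785 CPM with IL-22, 2.50 ± 1.45 CPM with IL-1b and 0.667 ± 0.363 CPM unstimulated. Icam1, the neutrophil adhesion ligand, rose by 2.79 ± 0.42 with both and 2.36 ± 0.44 with IL-22. With IL-22, 20 alternatives gave a value for Icam1, against 21 with both cytokines. Its calls may therefore not be independent of the filter on low counts. Cd47 rose by 0.57 ± 0.06 and Cd55 by 0.44 ± 0.12 with both, and the Cd55 call was lost without IL-1b+IL-22 replicate 3 or unstimulated replicate 1 or 2. Mmp7 and Icam1 share exon bases with other gene models, so their counts are uncertain.

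Against IL-22 alone, where none of the 3 members was called, both cytokines raised Ccl20 (2.38 ± 0.25, adjusted p = 0.00118) and Mmp7 (2.53 ± 0.41, adjusted p = 0.0383) among the listed pathway genes. S100a9, a calprotectin subunit from the neutrophil marker list that epithelium also makes, was higher as well (5.21 ± 0.65, adjusted p = 0.00574), with 44, 38 and 78 counts with both cytokines and 2, 2 and 0 with IL-22. S100a9 passed the filter on low counts through the libraries with both cytokines, so this call is not independent of that filter. Prl2a1, among the genes most like Cxcl2, was also higher (1.78 ± 0.28, adjusted p = 0.0335). The Mmp7 call was lost in 9 alternatives and that of Prl2a1 in 6.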

How the data were processed

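The authors deposited whole-number read counts per gene symbol for the 12 libraries, and the submitters' processing notes name mm10 as the genome build. Libraries came from a stranded TruSeq kit per the labels' protocols, and the sources used here name no aligner, counter, counting strand or annotation. Genes with low counts were removed with filterByExpr (13987 of 35869 symbols stayed), and libraries of 4703902 to 5804033 counts were scaled by TMM. The edgeR 4.0.16 quasi-likelihood method in R 4.3.3 fitted group means over all 12 libraries together (8 residual degrees of freedom), and p-values were adjusted by Benjamini-Hochberg over all genes tested, with a call at an adjusted p under 0.05. The SE of a log2 fold change is its size over the square root of the F statistic and is approximate. CPM are relative to the TMM-scaled total. Counting intervals (95%, exact) and floors (3 counts) cover counting error only. The method was tested on simulated data. Likeness is Pearson's r of log2 CPM (prior count 2). Positions are from GENCODE M21, matched by symbol (27246 placed), and promoter windows from RefSeq.

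The members and gene lists were chosen with earlier results of these data known. Named by rule were the members, the 5 genes most like each, the tested genes within 250 kb, up to 4 called genes per list and comparison with the largest fold change, and a set of receptor, cytokine and feedback genes. A few further list members are given as examples, and some genes that the rule or lists hold are not reported here. Alternatives were DESeq2 1.42.0 (its size factors and its Wald test), limma-voom (limma 3.58.1), total counts as the scaling, other filters, a replicate block, a fit restricted to the libraries of a comparison, and each library left out in turn. Protein-coding transcript lengths were chosen after seeing the data. So was leaving out together the IL-1b and IL-1b+IL-22 libraries with the highest sum of other leukocyte markers in their groups. So were the NF-kB letters searched in promoters, of which a longer form, with a further G in front, was searched first and found in fewer windows.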

Additional observations from a re-analysis of the deposited data

How the results depend on the processing

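Of the results for Cxcl1, Cxcl2 and Cxcl5 over all comparisons and alternatives, 415 kept their direction and their side of the threshold, 6 passed it only under an alternative, 3 no longer passed and 10 changed sign. No called value changed sign. With no filter beyond 1 count, IL-1b against unstimulated passed for Cxcl1 (1.44, adjusted p = 5.67e-04) and Cxcl5 (1.04, adjusted p = 0.0221), and IL-1b+IL-22 against IL-22 for Cxcl1 (0.78, adjusted p = 0.0489), Cxcl2 (2.14, adjusted p = 6.35e-04) and Cxcl5 (1.08, adjusted p = 1.63e-05). DESeq2 called Cxcl1 for IL-1b against unstimulated (1.43, adjusted p = 0.0248). The Cxcl1 difference of IL-1b+IL-22 against IL-1b was 0.86 (adjusted p = 0.101) without IL-1b replicate 1 and IL-1b+IL-22 replicate 3. These libraries had the highest sums of other leukocyte markers in their groups, and this alternative was chosen after seeing the data. The cause of these shifts was not tested. Leaving out 1 library gave 0.81 to 1.15 for that difference. For IL-1b+IL-22 against unstimulated it gave 2.25 to 2.63 for Cxcl1, 3.15 to 4.13 for Cxcl2 and 3.29 to 3.76 for Cxcl5. It gave -0.10 (without IL-22 replicate 1) to 0.38 for Cxcl1 and -0.44 to 0.90 for Cxcl2 in IL-22 against IL-1b, where Cxcl2 was 0.21 with limma-voom and 0.90 without the 2 libraries. It gave -0.32 to 0.48 for the Cxcl5 interaction, negative without unstimulated replicate 1 (-0.14) or 3 (-0.12), IL-22 replicate 2 (-0.10), IL-1b replicate 2 (-0.32) or IL-1b+IL-22 replicate 3 (-0.25). For Cxcl2 in IL-22 against IL-1b the sign turned without IL-22 replicate 3 (0.08) or IL-1b replicate 1 (0.90).

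Replicate numbers were not taken to pair libraries across groups. The deviations of same-numbered libraries correlated at -0.188 to 0.179 over 18 pairs, and those of differently numbered ones at -0.235 to 0.218. Of 12 libraries, 2 correlated best with their own number. With the replicate number as a block, no call of the 3 genes changed (IL-1b+IL-22 against unstimulated was 2.39 for Cxcl1, 3.75 for Cxcl2 and 3.6 for Cxcl5), and the genes called for IL-1b+IL-22 against IL-22 numbered 7, against 11 without it.

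The number of called genes moved by over 1.5 times in these cases. For IL-1b+IL-22 it was 3783 against unstimulated and 3682 against IL-1b, but 2423 and 1970 without the 2 libraries. For IL-22 it was 3144 against unstimulated (1992 without unstimulated replicate 2) and 3673 against IL-1b (2345 without IL-1b replicate 3). For IL-1b against unstimulated it was 10, with 32 by DESeq2, 212 with no filter and 28 without unstimulated replicate 3. For IL-1b+IL-22 against IL-22 it was 11, with 87 by DESeq2, 336 with no filter, 6 with only the libraries compared, 4 without the 2 libraries and 3 to 72 leaving out 1 library. For the interaction it was 0, with 4 by DESeq2, 50 with no filter and 1 without IL-1b replicate 1. Of the values of named genes under the alternatives, 5130 kept their call and 567 lost it. List counts stayed within 1.5 times in 517 cases and moved further in 50. With only the libraries compared, Cxcl2 was filtered out for IL-22 against unstimulated, for IL-1b against unstimulated and for IL-22 against IL-1b, and that alternative cannot be fitted for the interaction. Depth limits Cxcl2 above all, with 0 to 40 counts per library.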
